A study of Rattus norvegicus with 15 samples.

Results

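Lungs of decoction-treated model rats were compared with normal lungs, 5 libraries of each, which are 10 of the 15 RNA sequencing libraries of the study. All rats were wild type. The control group was labelled normal control. The WDD group had received lipopolysaccharide (LPS) and smoke by the tracheal route, a model of chronic obstructive pulmonary disease (COPD), and Wendan Decoction (WDD), a traditional Chinese herbal formula, into the stomach. A group given LPS and smoke alone (COPD, 5 libraries) is cited as context without a test, since its comparison would share the control libraries. No group received the decoction alone, so exposure and decoction cannot be told apart as sources of a difference from normal lung. The labels give no age, sex, strain, dose or time. Separate animals per library are not stated either, so p-values measure only the spread between these samples, which may be technical.

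LPS is a bacterial cell wall component that alveolar macrophages and epithelium sense through the receptor TLR4. The response recruits neutrophils through chemokines and secreted cytokines, and smoke adds oxidants and foreign chemicals that lung epithelium handles with xenobiotic and antioxidant enzymes. Gas exchange rests on flat alveolar type 1 cells joined by tight junctions, on type 2 cells that make surfactant and on a dense capillary bed.

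Values were FPKM, that is, fragments per transcript length and library size. Defining lung genes were present in every library: Sftpc, the type 2 cell surfactant protein, lay at 9156 to 15268 FPKM in control and 13144 to 15851 in WDD lungs, and Cldn18, a junction protein of the alveolus, at 315 to 500.0 and 204 to 291. Read counts were not analysed here. Relative depth was taken as the inverse of the most frequent ratio to control 2 among low genes present in both libraries. It was 0.959 to 1.06 in the 10 libraries, on the assumption that this ratio reflects depth. The library makeup differed between the groups. The 13 mitochondrially encoded genes held 8.11% ± 1.94 (SD, n = 5) of the FPKM sum in control lungs and 21.7% ± 2.90 in WDD lungs. This difference of 13.6 points had an exact permutation p of 0.00794 (two-sided), the smallest that 5 against 5 can give. RNA also differed by transcript length class: the median log2(FPKM + 1) of long housekeeping transcripts minus that of short ones was -1.85 ± 0.41 in control and -3.71 ± 0.29 in WDD lungs (exact permutation p = 0.00794). The groups did not overlap in this long-minus-short measure, so it and the group cannot be told apart, and its part in the gene results below was not tested. Control 1, at -2.55, lay nearest to the WDD group, while the other controls lay between -1.80 and -1.53. WDD 4 and WDD 5 were the most alike pair of libraries (Pearson r = 0.992 across genes).

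**Figure D1:**
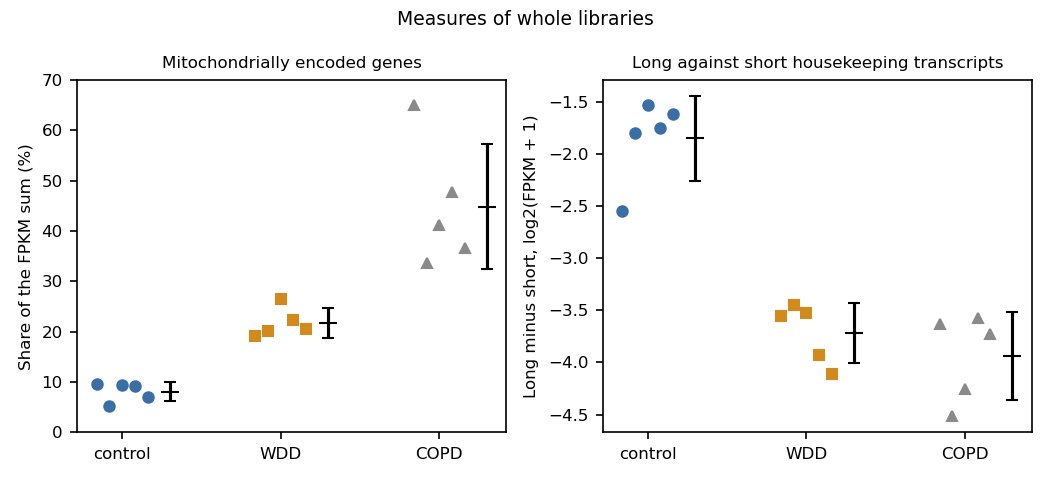
Share of the FPKM sum held by the mitochondrially encoded genes (left, percent) and median log2(FPKM + 1) of long minus short housekeeping transcripts (right), 1 point per library, with the mean ± SD of each group (n = 5) beside the points. Every WDD library has a larger mitochondrial share (19.1% to 26.5%) and a lower long-minus-short value (-4.12 to -3.45) than every control (5.19% to 9.62% and -2.55 to -1.53); COPD libraries are shown as context.

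Expression differed across much of the measured transcriptome. Of 13172 genes that reached an FPKM of 1 in 5 or more of the 15 libraries, 1642 were higher and 5569 lower in WDD than in control lungs, which are 12.5% and 42.3% of the genes tested (54.7% in either direction, limma, adjusted p under 0.05). Across all genes the median change was -0.23 on the log2 scale. Dividing each library by its median-of-ratios size factor, which sets the typical gene to no change, moved that median to 0.02 and gave 3420 higher (26%) and 3241 lower (24.6%), 50.6% in either direction. Lower genes made up 77.2% of the calls as deposited and 48.7% after scaling, so the balance of directions depended on the scaling. No gene was called in opposite directions. The same direction was called both ways for 4883 genes (37.1%), 1642 higher (12.5%) and 3241 lower (24.6%), and single genes called rises or falls below are of this kind unless stated. All 5 libraries of one group lay above all 5 of the other for 891 genes higher in WDD lungs (6.76%) and 4133 lower (31.4%), 38.1% in all. A called change of at least 1 on the log2 scale was found for 222 genes upward (1.69%) and 1177 downward (8.94%). After scaling, 17.4% of genes were higher and 16% lower without overlap (33.4% in all), and 4.18% and 4.54% were called with a change of at least 1. These shares over all genes are the background against which each list count below is to be read. Fold changes are differences on the log2(FPKM + 1) scale, WDD minus control, ± SE, and understate the change of low genes.

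Among genes with a proper symbol and no overlap between the groups, the deepest fall was that of Zbtb16. Zbtb16, a transcriptional repressor induced by glucocorticoids, had 14.5, 40.3, 38.1, 30.7 and 23.3 FPKM in control lungs 1 to 5 and 4.38, 4.95, 3.63, 2.91 and 1.91 in WDD lungs 1 to 5. The log2 fold change was -2.697 ± 0.27 (adjusted p = 4.62e-05). Slc7a2, a transporter of arginine, lay at 8.38, 12.8, 13.6, 16.2 and 23.5 FPKM in controls and at 2.56, 1.72, 1.24, 0.789 and 0.904 after treatment. It changed by -2.68 ± 0.25 (adjusted p = 4.43e-05). Slc6a6, which imports taurine, changed by -2.49 ± 0.28, with 14.1 to 47.98 FPKM in controls and 3.62 to 6.53 in WDD lungs. Lifr and Il6st encode the paired receptor chains for leukaemia inhibitory factor, Il6st being the signalling chain shared by the interleukin-6 family, and both were among the 12 deepest falls of such genes. Lifr lay at 9.62 to 43.4 FPKM in controls and 2.79 to 6.17 in WDD lungs (log2 fold change -2.45 ± 0.34), and Il6st at 32.99 to 90.7 and 10.7 to 22.998 (-2.21 ± 0.27). Tgfbr2, the type II receptor for transforming growth factor beta, had 26.7, 85.6, 78.9, 75.95 and 86.96 FPKM in controls and 13.1, 11.9, 11.9, 11.8 and 11.6 in WDD lungs. The WDD libraries were nearly level, whereas control 1 was far below the other controls and still above every WDD library. The fold change of Tgfbr2 was -2.35 ± 0.27 (adjusted p = 5.84e-05).

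The other genes of this group act in the matrix and at the cell surface. Spock2, an extracellular proteoglycan, changed by -2.496 ± 0.42, Hyal1, which degrades hyaluronan, by -2.32 ± 0.33, and Ndst1, which sulphates heparan sulphate, by -2.24 ± 0.31. Crim1, a transmembrane regulator of bone morphogenetic proteins, changed by -2.404 ± 0.25. Susd6 and Pdzd2 complete the 12, at -2.23 ± 0.22 and -2.23 ± 0.30. The rule that chose the 12 genes required all WDD libraries below all controls and a call after scaling, so neither is a further result. After scaling these falls ranged from -2.46 to -1.93. Control 1 was the lowest control in all 12.

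The largest rises of genes with a proper symbol and no overlap were mitochondrial. Of the 12, 11 are encoded in the mitochondrial genome, from Mt-nd2 at 1.96 ± 0.28 to Mt-nd6 at 1.63 ± 0.18, and the other was S100a9. To show nuclear genes, the 12 largest nuclear rises under the same rule were added after their values were seen. Tmem213 rose by 1.498 ± 0.29, with 0.204 to 0.639 FPKM in controls and 0.978 to 5.795 in WDD lungs. Cd52, a surface glycoprotein of lymphocytes, had 0.592, 1.64, 1.09, 0.447 and 0.309 FPKM in controls and 7.52, 2.52, 2.11, 4.35 and 3.46 in WDD lungs, a change of 1.41 ± 0.27 (adjusted p = 0.00104). Ubd, a ubiquitin-like modifier induced by cytokines, changed by 1.39 ± 0.28, with 6.01 to 20.2 FPKM in controls and 20.8 to 36.9 in WDD lungs. Its call was lost when all 15 libraries were fitted together (adjusted p = 0.139). Ccdc152 rose by 1.44 ± 0.19 while Selenop, a selenium carrier whose end overlaps that of Ccdc152 in the RefSeq annotation of GRCr8, fell by 0.95 on the log2 scale. Strand use in the counting is not given in the sources used here, so reads of this pair may not be told apart. Pin4, a prolyl isomerase, rose by 1.42 ± 0.17 and Serf1 by 1.39 ± 0.26. The remaining 5 were ribosomal protein genes (Rpl35a, Rpl37, Rpl35, Rps21 and Rpl41), which have many near-identical copies and are therefore uncertain one by one.

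**Figure D2:**
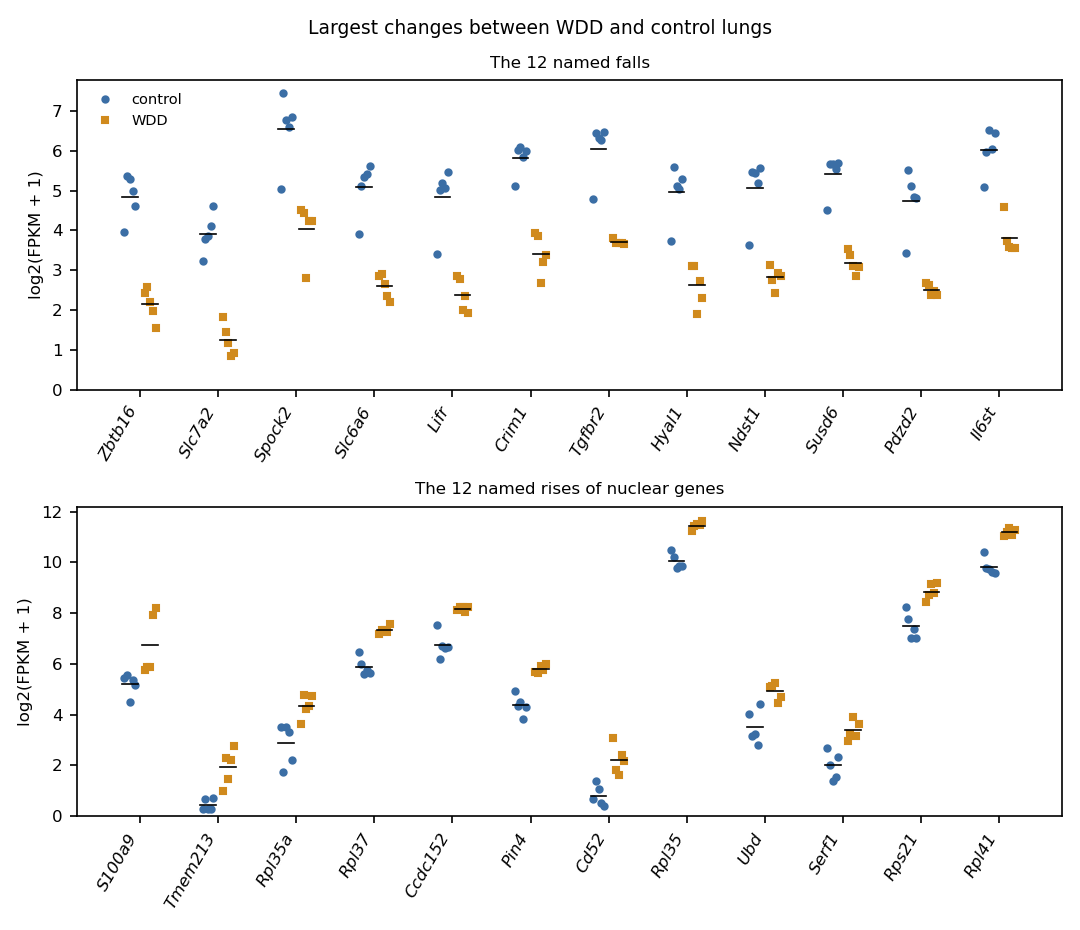
log2(FPKM + 1) of the 12 named falls (top) and of the 12 named nuclear rises (bottom), 1 point per library, with the group mean as a line. By the rule that chose them, the groups do not overlap in any of the 24 genes. Control 1 is the control nearest to the WDD libraries in all 12 falls, and S100a9 is raised mainly in WDD 4 and WDD 5.

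Genes without a proper symbol lie outside the rule for named genes, and 6 of them were higher and 6 lower by at least 2.5 on the log2 scale. They were chosen after their values were seen. AABR07015057.1 had 5.52, 8.58, 3.24, 3.83 and 2.55 FPKM in controls and 336, 491, 218, 299.8 and 308 in WDD lungs, a ratio of means of 69.7 and a log2 fold change of 5.89 ± 0.26 (adjusted p = 2.01e-07). AABR07015081.2 had 8.94, 6.39, 3.33, 6.39 and 3.93 FPKM in controls and 298, 311, 220.2, 318 and 263 in WDD lungs, a ratio of means of 48.7 and a change of 5.43 ± 0.20 (adjusted p = 4.96e-08). The groups lie far apart in both, and the COPD libraries, at 179 to 389.9 and 164 to 328 FPKM, overlap the WDD libraries. AABR07015078.1 lay at 0 to 0.400 FPKM in controls and 4.51 to 13.2 in WDD lungs, and AABR07015066.1 was listed at 0 in every control and at 1.09 to 50.9 in WDD lungs. LOC100134871 and LOC103694857 changed by 3.22 ± 0.63 and 2.56 ± 0.62, with overlap between the groups, and the deepest fall of the 6 was that of AABR07051551.2, at -3.26 ± 0.54. What these loci encode was not analysed here.

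Few neutrophil markers were called different between decoction-treated and normal lungs. Of 17 tested, 2 were higher and 1 lower in WDD than in control lungs (4 and 1 after scaling, and 1 and 3 as deposited without WDD 4 and WDD 5), with a median log2 fold change of 0.09, against -0.23 for all genes and background rates of 12.5% higher and 42.3% lower. Their summed level was 184 to 274 FPKM in controls, 123 to 707 in WDD and 15262 to 50499 in COPD lungs. The filter also counted the COPD libraries, so neutrophil, chemokine and cytokine genes low in both compared groups could pass it. Such genes can hardly be called, so few calls in these lists do not show that levels were alike. S100a9, a calcium-binding protein abundant in neutrophils, lay at 42.6, 46.7, 21.7, 40.5 and 35.3 FPKM in controls and 53.9, 58.6, 58.3, 241 and 289.9 in WDD lungs. All WDD libraries were above the controls, and WDD 4 and WDD 5 were far above the other 3. The change was 1.52 ± 0.47 (adjusted p = 0.0159), and 0.64 without WDD 4 and WDD 5 (adjusted p = 0.0306). Its partner S100a8 had 18.3, 24.9, 5.67, 9.83 and 12.6 FPKM in controls and 20.1, 18.7, 22.1, 95.6 and 117 in WDD lungs, a change of 1.56 ± 0.54 (adjusted p = 0.0283). WDD 1 to 3 lay within the control range, and the call was lost without WDD 4 (1.25, adjusted p = 0.0709), without WDD 5 (1.18, adjusted p = 0.0668) and without control 3, 4 or 5 (1.30, 1.48 and 1.56, adjusted p = 0.0719, 0.0595 and 0.0502). COPD lungs held 3076 to 15681 FPKM of S100a8. Itgam, an integrin chain of myeloid cells, fell by 0.70 on the log2 scale (adjusted p = 0.00159). Mmp8, neutrophil collagenase, was at 1.28 to 2.78 FPKM in controls and 2.28, 2.43, 2.197, 9.41 and 9.19 in WDD lungs (0.83 ± 0.36, adjusted p = 0.0649), and it was called after scaling (1.05).

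Of 29 chemokine genes tested, 4 were higher and 3 lower (9 and 2 after scaling), with a median of 0.14, where 12.5% of all genes were higher and 42.3% lower (26% and 24.6% after scaling). Without WDD 4 and WDD 5, 2 were higher and 2 lower. The 4 were Ccl19, Cxcl13, Ccl21 and Ccl11. The first 3 attract lymphocytes to lymphoid tissue, and Ccl11 attracts eosinophils. Ccl19 had 10.998, 2.48, 2.91, 6.72 and 3.22 FPKM in controls and 5.62, 22.4, 14.2, 47.3 and 52.7 in WDD lungs, with WDD 1 inside the control range and WDD 4 and WDD 5 highest. Its change was 2.03 ± 0.54 (adjusted p = 0.00682), and 1.26 without WDD 4 and WDD 5 (adjusted p = 0.0509). Cxcl13 had 8.95, 4.29, 5.93, 5.402 and 12.1 FPKM in controls and 13.7, 27.6, 9.95, 40.3 and 43.4 in WDD lungs, an overlap of WDD 3 with the controls (1.62 ± 0.39, adjusted p = 0.00369). Neutrophil-attracting Cxcl1 lay at 42.5, 17.1, 15.2, 12.3 and 11.5 FPKM in controls and 15.8, 15.3, 47.1, 13.6 and 15.1 in WDD lungs. In each group 1 library stood far above the rest, and the difference was 0.11 ± 0.38 with a 95% interval of -0.71 to 0.93 (adjusted p = 0.821), while COPD lungs held 444 to 1772 FPKM. The monocyte attractant Ccl2 differed by 0.13 ± 0.22 (interval -0.35 to 0.61, adjusted p = 0.643) and Ccl7 by 0.41 ± 0.31 (adjusted p = 0.279). Among the falls were Cx3cl1, the membrane-bound chemokine of endothelium and epithelium (-1.02 ± 0.19), and Cxcl12, which retains leukocytes in tissue (-0.79 ± 0.19).

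Few cytokine genes were called. Of 21 tested, none was higher and 6 were lower as deposited (Lif, Il10, Tgfb2, Csf1, Tgfb1 and Il16), and 3 were higher and 1 lower after scaling. The shares of all genes called lower were larger, at 42.3% as deposited and 24.6% after scaling. Lif was the one lower both ways (-0.58 ± 0.15, adjusted p = 0.00601). Il6 lay at 0 to 0.525 FPKM in controls and 0.0710 to 0.532 in WDD lungs, against 12.1 to 98.001 in COPD lungs. Il6 thus passed the filter through the COPD libraries alone, and other genes of the list may have done so too. At such levels a difference on the log2(FPKM + 1) scale is bound to be small. The Il6 value of 0.04 ± 0.17 (interval -0.33 to 0.41, adjusted p = 0.87) therefore says little, and the count of calls in this list is limited likewise. Il1b, the fever-inducing interleukin, lay at 12.2 to 27.6 and 17.3 to 31.5 FPKM and differed by 0.44 ± 0.23 (adjusted p = 0.124), or by 0.72 after scaling (adjusted p = 0.0238). Its natural antagonist Il1rn differed by 0.05 ± 0.19 (adjusted p = 0.833), Osm by 0.08 ± 0.18 (adjusted p = 0.742) and the granulocyte receptor Csf3r by -0.09 ± 0.22 (adjusted p = 0.746). Tnf did not pass the filter. A p above the threshold does not show that the levels were alike, and the intervals give the differences that remained possible.

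**Figure D3:**
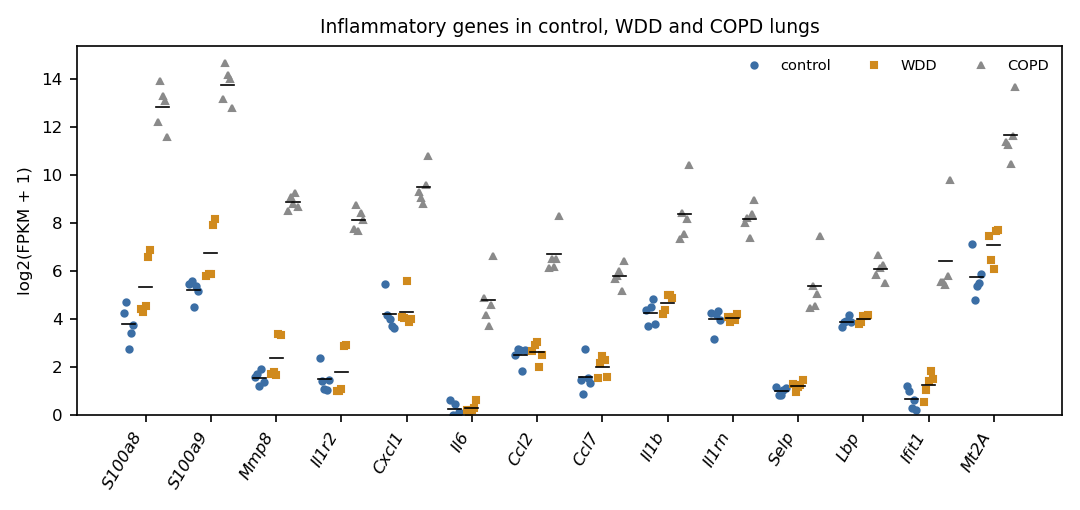
log2(FPKM + 1) of 14 inflammatory genes in control, WDD and COPD lungs, 1 point per library, with the group mean as a line. WDD libraries sit beside the controls for Cxcl1, Ccl2 and Il1rn, and for Il6, which stays under 1 FPKM in both groups. WDD 4 and WDD 5 sit above the other WDD libraries for S100a8, S100a9, Mmp8 and Il1r2, and the COPD libraries sit above both groups.

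Sensing of LPS was represented by 27 genes of the TLR4 and NF-kappaB pathway. Of these, 1 was higher and 10 were lower (6 and 3 after scaling), with a median of -0.21. The shares lower were below those of all genes, which were 42.3% as deposited and 24.6% after scaling. Tlr4, the LPS receptor, had 5.79, 6.03, 9.31, 8.11 and 8.47 FPKM in controls and 3.91, 4.93, 2.74, 2.801 and 3.26 in WDD lungs. The groups did not overlap, and it fell by 0.92 on the log2 scale (adjusted p = 6.25e-04). The adaptor ligase Traf6 changed by -1.19 ± 0.19 and the feedback inhibitor Tnfaip3 by -1.13 ± 0.26. Vcam1, an adhesion molecule for lymphocytes and monocytes, rose by 0.46 ± 0.14 (adjusted p = 0.0157), a call lost without WDD 4 and WDD 5 (0.31, adjusted p = 0.124). Of 26 interferon-response genes 1 was higher and 6 were lower (5 and 2 after scaling), with a median of -0.14, and here too the shares lower were below those of all genes. The RNA sensor Ddx58 changed by -1.34 ± 0.21 and the signalling factor Irf9 by -0.61 ± 0.09, whereas the ubiquitin-like Isg15 changed by 0.58 ± 0.18 (adjusted p = 0.0145, and 0.0987 without WDD 4 and WDD 5). With all 15 libraries in one fit, the lower counts were 2 in the TLR4 list and 0 in the interferon list. Without WDD 4 and WDD 5, they were 5 and 4. Without control 1, 3 genes of the TLR4 list and 4 of the interferon list were higher. Of 10 genes of MHC class II presentation 1 was higher (RT1-Db1, 0.68 ± 0.25) and 2 were lower, among them the costimulator Cd80 (-0.57 ± 0.16). The call of RT1-Db1 was lost without WDD 3, 4 or 5 and without control 2, 3, 4 or 5 (0.58 to 0.65, adjusted p = 0.0723 to 0.0910), and that of Cd80 without WDD 4 and WDD 5 together (-0.43, adjusted p = 0.0880).

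Resident immune cells showed members moving both ways. Of 18 macrophage markers 3 were higher and 7 lower (4 and 5 after scaling), with a median of -0.29. The shares lower were near those of all genes, 42.3% as deposited and 24.6% after scaling. Gpnmb, a glycoprotein of lipid-laden macrophages, had 108, 90.6, 132, 146 and 204 FPKM in controls and 49.9, 55.05, 32.1, 27.7 and 29.02 in WDD lungs without overlap (-1.79 ± 0.24). The scavenger receptor Msr1 changed by -1.13 ± 0.17, sialoadhesin Siglec1 by -1.09 ± 0.21 and the efferocytosis receptor Mertk by -0.697 ± 0.11. The 3 higher markers were the complement chains C1qa, C1qb and C1qc, at 0.57, 0.44 and 0.57, and without WDD 4 and WDD 5 the list held 1 higher marker. Of 18 T cell markers 3 were higher and 4 lower (5 and 2 after scaling, and 3 and 2 as deposited without WDD 4 and WDD 5). Of all genes 12.5% were higher (26% after scaling), and the shares of T cell markers lower were below those of all genes. The receptor chains Cd3g and Cd3d rose by 1.13 ± 0.17 and 0.95 ± 0.16, without overlap, while the co-receptor Cd4 changed by -0.91 ± 0.24 and the interleukin-7 receptor Il7r by -1.32 ± 0.24. The fall of Cd4 was not called without WDD 4 and WDD 5 (-0.61, adjusted p = 0.0582). Of 10 markers of natural killer and cytotoxic cells 1 was higher, Klrd1 (0.49 ± 0.14), and none lower, and Klrd1 lost its call without WDD 4 and WDD 5 (0.41, adjusted p = 0.0777). In bulk tissue, fewer cells of a type and less RNA per cell cannot be told apart, here and for every cell type below.

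Of 12 B cell genes 3 were higher and 1 lower (7 and 0 after scaling), where 12.5% of all genes were higher (26% after scaling), and the median was 0.25. Pax5, the factor that sets B cell identity, had 2.06, 0.871, 0.350, 1.07 and 1.53 FPKM in controls and 0.958, 9.34, 4.05, 6.51 and 6.62 in WDD lungs, WDD 1 lying inside the control range (1.43 ± 0.39, adjusted p = 0.00775). Cd79a, a chain of the B cell receptor, changed by 0.52 ± 0.16 and Fcrla by 0.87 ± 0.19. Without WDD 4 and WDD 5, Fcrla alone kept its call in this list, with Pax5 at 1.16 (adjusted p = 0.0617) and Cd79a at 0.41 (adjusted p = 0.104). Of 8 plasma cell markers 1 was higher, Tnfrsf17 (0.69 ± 0.23), and 4 were lower, among them Sdc1 (-0.998 ± 0.09), Xbp1 (-0.899 ± 0.10) and Prdm1 (-0.74 ± 0.15), genes that epithelium or other cells also express. Tnfrsf17 was not called without WDD 5 (0.63, adjusted p = 0.0523). Of 3 mast cell markers 1 was lower, the receptor Kit (-0.96 ± 0.13), which other lung cells also carry, and none higher.

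Several alveolar epithelial genes were below the normal level. Of 15 type 1 cell markers none was higher and 10 were lower (3 and 6 after scaling), with a median of -0.49, and in COPD lungs the median difference from control was -2.52. Rtkn2 had 26.96, 55.1, 55.8, 49.6 and 66.3 FPKM in controls and 20.1, 21.1, 13.1, 16.4 and 15.96 in WDD lungs, with no overlap and a change of -1.46 ± 0.21 (adjusted p = 1.65e-04). Caveolin Cav1 changed by -0.83 ± 0.14, Cldn18 by -0.77 ± 0.14 and the sodium channel subunit Scnn1g by -0.79 ± 0.11. Ager, a receptor highly expressed on type 1 cells, differed by 0.02 ± 0.15 (interval -0.31 to 0.35, adjusted p = 0.925). Of 14 type 2 cell markers none was higher and 7 were lower (2 and 4 after scaling), with a median of -0.38 (-0.09 after scaling). These type 2 counts lay near the shares of all genes lower, 42.3% as deposited and 24.6% after scaling. Abca3, which pumps lipid into lamellar bodies, had 71.5, 112, 95.2, 117 and 127 FPKM in controls and 43.004, 43.1, 47.2, 34.96 and 35.8 in WDD lungs. It changed by -1.32 ± 0.15 (adjusted p = 5.79e-05), and the phosphate transporter Slc34a2 by -1.46 ± 0.20, both without overlap. The surfactant proteins themselves differed less. Sftpc differed by 0.21 ± 0.21 (interval -0.25 to 0.67, adjusted p = 0.419), Sftpa1 by -0.05 ± 0.14 (adjusted p = 0.794) and Sftpd by -0.05 ± 0.09 (adjusted p = 0.672). After scaling Sftpd was higher, at 0.25 (adjusted p = 0.0459), and under quantile normalisation Sftpc was lower, at -1.006 (adjusted p = 0.000498). Sftpb fell by 0.58 on the log2 scale as deposited (adjusted p = 0.0054) and was not called after scaling (-0.29, adjusted p = 0.134).

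Junction and transport genes of the epithelium were mostly lower. Of 22 junction genes none was higher and 19 were lower (1 and 14 after scaling), 18 of them without overlap where 31.4% of all genes were lower without overlap, and the median was -0.65. Ctnnb1 (beta-catenin), which links cadherins to the cytoskeleton, had 126, 158, 155, 151 and 165 FPKM in controls and 79.7, 75.03, 68.3, 77.7 and 79.3 in WDD lungs (-0.98 ± 0.09, adjusted p = 4.43e-05). E-cadherin Cdh1 changed by -0.98 ± 0.11, desmoplakin Dsp by -0.85 ± 0.12 and Marveld2, a tight junction protein, by -1.48 ± 0.15. Of 17 genes of alveolar fluid and ion transport none was higher and 15 were lower (1 and 9 after scaling), with a median of -0.75. Among all genes 42.3% were lower (24.6% after scaling), which is the background for each list of this paragraph. The potassium channel Kcnj15 had 24.9, 44.7, 46.6, 53.04 and 67.3 FPKM in controls and 11.7, 7.69, 10.3, 12.5 and 10.1 in WDD lungs, a change of -2.02 ± 0.22. The chloride transporters Slc26a9 and Clcn3 changed by -1.67 ± 0.20 and -1.696 ± 0.20. Aqp5, a water channel, was not called, at 0.11 ± 0.13 (adjusted p = 0.496), which was called higher after scaling (0.41). Surfactant lipid, fatty acid and sterol synthesis had 19 of 24 genes lower and none higher (15 and 1 after scaling), with a median of -0.73. Acaca, the first committed enzyme of fatty acid synthesis, changed by -1.28 ± 0.16, the sterol regulator Srebf2 by -0.92 ± 0.09 and Lpcat1, which makes surfactant phosphatidylcholine, by -0.85 ± 0.09.

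Airway secretory genes were in part higher, with wide spread. Of 8 club and goblet cell markers 3 were higher and 1 lower, as deposited and after scaling. Scgb1a1, the main club cell secretoglobin, had 16718, 11170.1, 10674, 14286 and 13834 FPKM in controls and 19377, 16735, 21696, 36058 and 37506 in WDD lungs. The groups did not overlap, although WDD 2 lay barely above control 1, and the change was 0.92 ± 0.30 (adjusted p = 0.0194). That call was lost without WDD 4 (0.78, adjusted p = 0.0564), without WDD 5 (0.77, adjusted p = 0.0531) and without control 3 (0.84, adjusted p = 0.0509), and quantile normalisation turned the value to -0.23 (adjusted p = 0.397). Scgb3a1 had 14.1, 44.5, 9.56, 185 and 193 FPKM in WDD lungs against 4.33 to 27.03 in controls, so WDD 1 and WDD 3 lay within the control range (2.17 ± 0.80, adjusted p = 0.0373). Scgb3a2 changed by 0.83 ± 0.33 (adjusted p = 0.0485). Leaving out WDD 4 and WDD 5 gave 0.85 for Scgb3a1 (adjusted p = 0.260) and 0.25 for Scgb3a2 (adjusted p = 0.323), and none of the 3 rises was then called. The call of Scgb3a1 was also lost without WDD 2, 4 or 5 and without control 1, 2 or 3, and that of Scgb3a2 without WDD 4 or 5 and without control 2, 3, 4 or 5. Pigr, which carries antibodies across epithelium, fell by 1.10 on the log2 scale. Of 14 ciliated cell markers 2 were higher and 5 lower (3 and 3 after scaling). These counts lay near the shares of all genes, 12.5% higher and 42.3% lower (26% and 24.6% after scaling). Ccdc40, Dnah11 and Hydin, which build the moving axoneme, changed by -1.19 ± 0.19, -0.86 ± 0.16 and -0.96 ± 0.22, while Tppp3 changed by 0.27 ± 0.10. Tppp3 was not called without WDD 3, 4 or 5 or without control 3, 4 or 5 (0.23 to 0.28, adjusted p = 0.0540 to 0.0866), and turned to -0.14 under quantile normalisation (adjusted p = 0.228). The 2 basal cell markers tested were not called.

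Of 17 endothelial markers 2 were higher and 9 lower (4 and 3 after scaling), with a median of -0.30. Of all genes 42.3% were lower as deposited and 24.6% after scaling, and their median was -0.23. With all 15 libraries in one fit 3 were lower, and with 1 library left out the lowest count was 5. Ednrb, the endothelin B receptor, had 28.99, 66.8, 50.6, 49.9 and 58.8 FPKM in controls and 17.3, 16.5, 10.7, 9.87 and 10.04 in WDD lungs, a change of -1.89 ± 0.22 (adjusted p = 6.15e-05). The receptors for vascular endothelial growth factor Flt1 and Kdr changed by -1.03 ± 0.13 and -0.79 ± 0.14, without overlap. Emcn, a sialomucin of capillaries, changed by 0.59 ± 0.16 (0.52 and adjusted p = 0.0556 without WDD 4 and WDD 5). Of 23 genes of angiogenesis and vascular tone 1 was higher and 16 were lower (1 and 10 after scaling), with a median of -0.49. Angpt1, the ligand that stabilises vessels, changed by -1.78 ± 0.24, and Ece1, which activates endothelin, by -1.295 ± 0.14. Ace, angiotensin-converting enzyme of the capillary surface, had 212, 406, 382, 329 and 363 FPKM in controls and 178, 186, 132, 113 and 99.5 in WDD lungs. Its groups did not overlap, and it changed by -1.26 ± 0.21 (adjusted p = 3.62e-04).

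Of 14 markers of smooth muscle and pericytes 1 was higher and 9 were lower (1 and 6 after scaling), with a median of -0.67. Among all genes 42.3% were lower (24.6% after scaling). Notch3, which maintains mural cells, had 12.1, 26.8, 17.8, 20.002 and 12.2 FPKM in controls and 3.91, 3.196, 2.91, 3.14 and 3.35 in WDD lungs, a change of -2.07 ± 0.19 (adjusted p = 4.43e-05). Pdgfrb and Cspg4, surface proteins of pericytes, changed by -0.67 ± 0.12 and -0.79 ± 0.15, whereas Higd1b changed by 0.88 ± 0.19. Of 18 fibroblast and matrix genes 2 were higher and 7 lower (3 and 5 after scaling). The shares as deposited were near those of all genes, 12.5% higher and 42.3% lower. The 2 higher genes were decorin Dcn, at 42.3 to 60.7 FPKM in controls and 77.99 to 95.8 in WDD lungs (0.84 ± 0.10, adjusted p = 7.13e-05), and lumican Lum (0.68). Npnt, a basement membrane ligand, changed by -1.74 ± 0.22, fibronectin Fn1 by -1.08 ± 0.18 and the receptor Pdgfra by -1.03 ± 0.15. The fibrillar collagens Col1a1 and Col3a1 differed by -0.02 ± 0.27 (interval -0.62 to 0.57, adjusted p = 0.948) and -0.004 ± 0.16 (interval -0.35 to 0.34, adjusted p = 0.987).

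Genes of transforming growth factor beta signalling, which drives matrix production, were mostly lower. Of 20 genes none was higher and 15 were lower (0 and 9 after scaling), 12 without overlap, with a median of -0.53. Among all genes 42.3% were lower (24.6% after scaling), and 31.4% were lower without overlap. Beside Tgfbr2, the type I receptor Tgfbr1 changed by -1.11 ± 0.13, the common mediator Smad4 by -1.101 and the inhibitors Smad7 and Skil by -0.94 ± 0.14 and -1.51 ± 0.20. Of 14 metalloproteinases and inhibitors none was higher and 7 were lower (3 and 5 after scaling), with a median of -0.42, and the share lower as deposited was near that of all genes. Timp3, an inhibitor bound to the matrix, had 403, 836, 929.9, 826 and 877 FPKM in controls and 292, 251, 137, 193 and 180.3 in WDD lungs. The groups did not overlap, and it changed by -1.86 ± 0.25 (adjusted p = 1.07e-04). The membrane proteases Mmp14 and Mmp15 changed by -1.57 ± 0.20 and -1.39 ± 0.18, Mmp19 by -0.96 ± 0.11 and the sheddase Adam17 by -0.69 ± 0.07. Of 5 mesothelial markers none was higher and 3 were lower (5 without WDD 4 and WDD 5), Krt19 (-0.697 ± 0.10), Lrrn4 (-1.05 ± 0.15) and Upk3b (-1.42 ± 0.37).

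Several clock genes were lower, some with and some without the canonical E-box of the clock in their promoters. The core clock is a loop in which CLOCK and its partner activate genes through E-boxes (CACGTG), and the products, including Bhlhe40 and Bhlhe41, repress that activity. The promoter stretches of both genes are shown because they are the deepest falls in the list. They are the 250 bases before the RefSeq start in build GRCr8, chr4:143174200-143174449 on the plus strand for Bhlhe40 and chr4:180569356-180569605 on the minus strand for Bhlhe41, with the E-box in capitals.
Bhlhe40: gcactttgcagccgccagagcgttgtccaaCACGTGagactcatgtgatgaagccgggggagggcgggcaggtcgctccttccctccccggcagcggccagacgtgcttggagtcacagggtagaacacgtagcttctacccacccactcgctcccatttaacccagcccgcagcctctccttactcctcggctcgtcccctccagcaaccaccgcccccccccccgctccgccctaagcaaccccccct
Bhlhe41: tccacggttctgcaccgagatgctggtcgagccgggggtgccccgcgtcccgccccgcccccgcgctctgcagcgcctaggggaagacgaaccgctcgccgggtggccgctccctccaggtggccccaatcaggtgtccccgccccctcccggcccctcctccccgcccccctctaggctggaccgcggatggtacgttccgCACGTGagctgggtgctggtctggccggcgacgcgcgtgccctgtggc
The motif starts 220 bases before the start of Bhlhe40 and 48 before that of Bhlhe41. It reads the same on both strands, and 5.59% of 33469 promoters in the table hold it in this window, as do 5 of the 16 clock-list genes with a promoter there (Bhlhe40, Bhlhe41, Ciart, Nr1d1 and Tef). Of the lower genes, Clock, Cry2, Per3 and Rora did not hold it, nor did Npas2 and Per2, which were lower as deposited only. Not every lower gene of the list had a promoter matched by its symbol, so these are not all of them. A match is a description of the letters, not evidence of binding. Of 18 clock genes tested none was higher and 10 were lower (1 and 8 after scaling), 9 without overlap, with a median of -0.57. Among all genes 42.3% were lower (24.6% after scaling), 31.4% without overlap. Bhlhe41 had 14.6, 12.005, 13.8, 15.8 and 17.1 FPKM in controls and 5.85, 4.66, 2.87, 3.17 and 2.596 in WDD lungs, a change of -1.73 ± 0.18 (adjusted p = 4.99e-05). Bhlhe40 had 57.2, 33.3, 42.3, 41.7 and 35.3 FPKM in controls and 23.8, 16.9, 22.1, 18.6 and 19.9 in WDD lungs, a change of -0.999 ± 0.14 (adjusted p = 1.53e-04). All WDD libraries lay below the controls for both. The activator Clock changed by -0.65 ± 0.11 and the repressor Cry2 by -0.88 ± 0.13. Of the other genes with the motif, Tef changed by -0.75 ± 0.13, while Nr1d1 (-0.62 ± 0.32, adjusted p = 0.121) and Ciart (0.43 ± 0.33, adjusted p = 0.282) were not called. The time of day at which lungs were taken is not given in the labels.

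Of 17 glucocorticoid-responsive genes tested, 1 was higher and 5 were lower, as deposited and after scaling, where 42.3% and 24.6% of all genes were lower, and the median was -0.29 against -0.23 for all genes. Beside Zbtb16 the falls were Hif3a (-1.99 ± 0.24), Klf9 (-1.33 ± 0.16), Pdk4 (-1.19) and the receptor gene Nr3c1 (-0.61 ± 0.09). The well-known targets Fkbp5 and Tsc22d3 differed by -0.35 ± 0.15 (adjusted p = 0.0705) and 0.04 ± 0.13 (adjusted p = 0.828), and Cebpd was higher (0.999). Without WDD 4 and WDD 5 no gene of this list was called higher. Of 21 AP-1 and immediate early genes none was higher and 6 were lower (1 and 4 after scaling). Fosl2 had 16.6, 19.8, 22.998, 22.1 and 19.6 FPKM in controls and 12.1, 6.78, 8.31, 6.09 and 5.23 in WDD lungs (-1.33 ± 0.18), and Fosl1, Klf6 and Nr4a3 changed by -0.88 ± 0.17, -0.896 ± 0.19 and -0.85 ± 0.20.

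Enzymes that handle smoke chemicals and oxidants moved both ways. Of 27 xenobiotic enzymes 3 were higher and 7 lower (7 and 5 after scaling), with a median of -0.03. Of all genes 12.5% were higher and 42.3% lower (26% and 24.6% after scaling). The shares of xenobiotic enzymes higher were thus near those of all genes, and the shares lower were below them. Cyp2s1 and Cyp4b1, cytochromes P450 of the airway and lung, changed by -0.91 ± 0.20 and -0.602 ± 0.13, and Tiparp, a target of the aryl hydrocarbon receptor, by -1.02 ± 0.12. The quinone reductase Nqo1 had 44.1, 40.5, 35.5, 57.5 and 44.7 FPKM in controls and 22.7, 26.8, 25.99, 26.6 and 29.9 in WDD lungs, without overlap (-0.72 ± 0.12, adjusted p = 4.05e-04). Fmo2, the main flavin monooxygenase of lung, was at 580.3, 997, 970.0, 996 and 979 FPKM in controls and 581, 685, 455, 518 and 486 in WDD lungs (-0.72 ± 0.17), with control 1 inside the WDD range. Cyp2e1 differed by -0.07 ± 0.17 (interval -0.44 to 0.31, adjusted p = 0.764). The 3 higher genes were Gsta1 (0.63), Gstp1 (0.57) and Cyp1b1 (0.49). Of 19 genes of the NRF2 and glutathione response 2 were higher and 7 lower (7 and 3 after scaling), and the shares lower were again below those of all genes. Txn1, thioredoxin, had 374, 196, 197, 224 and 192 FPKM in controls and 517, 524, 596, 465 and 623 in WDD lungs (1.24 ± 0.17, adjusted p = 1.40e-04), with control 1 the highest control. Its reductase Txnrd1 changed by -0.57 ± 0.11 and the glutathione conjugate pump Abcc1 by -1.55 ± 0.18. Of 18 antioxidant enzymes 5 were higher and 2 lower, and 14 and 1 after scaling. Superoxide dismutase Sod1 changed by 0.77 ± 0.17, Prdx2 by 0.35 ± 0.08 and Gpx8 by 0.42 ± 0.11.

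Several zinc transporters were lower and Mt2A was higher, while the other metallothioneins tested, Mt1 and Mt1m, were not called higher as deposited. Of 12 genes 1 was higher and 7 were lower (2 and 6 after scaling), with a median of -0.48. Among all genes 42.3% were lower (24.6% after scaling). Slc30a1, Slc30a7, Slc39a1 and Slc39a10 changed by -1.19 ± 0.17, -0.93 ± 0.12, -0.88 ± 0.08 and -0.93 ± 0.13. Mt2A, which binds zinc and is induced by inflammation, had 139, 26.8, 40.3, 44.98 and 58.5 FPKM in controls and 175, 87.6, 67.5, 203 and 208 in WDD lungs. Control 1 lay among the WDD values, and the change was 1.34 ± 0.42 (adjusted p = 0.0173), or 0.93 without WDD 4 and WDD 5 (adjusted p = 0.126). With all 15 libraries in one fit the call of Mt2A was lost too (adjusted p = 0.0559). COPD lungs held 1398 to 12955 FPKM.

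Genes of the ribosome, the proteasome and the respiratory chain were mostly higher, beside the shift in the long-minus-short measure given above. Of 31 cytosolic ribosomal protein genes 29 were higher and none lower, as deposited and after scaling, 27 without overlap, where 12.5% of all genes were higher and 6.76% were higher without overlap. The median was 0.91, against 0.15 between COPD and control lungs. Rpl11 had 121, 90.5, 78.8, 82.5 and 83.8 FPKM in controls and 175, 192, 189, 203 and 202 in WDD lungs (1.08 ± 0.11, adjusted p = 4.99e-05), and control 1 was the highest control. Of 28 proteasome genes 19 were higher and 2 lower (22 and 0 after scaling), with a median of 0.41. Psmb7, a catalytic subunit, had 18.9, 13.4, 11.9, 11.99 and 12.1 FPKM in controls and 24.8, 29.4, 29.6, 27.2 and 34.4 in WDD lungs (1.05 ± 0.13). Psmb1, Psmd4 and Psmc5 changed by 0.62 ± 0.10, 0.58 ± 0.10 and 0.55 ± 0.09, while the scaffold subunits Psmd1 and Psmd2 differed by -0.300 and -0.39. Of 31 nuclear genes of the respiratory chain 21 were higher and 3 lower (27 and 1 after scaling), with a median of 0.45. Ndufa13 of complex I had 108, 80.3, 66.9, 65.1 and 56.7 FPKM in controls and 138, 154, 186, 169.8 and 223 in WDD lungs (1.21 ± 0.17), and Ndufa2, Ndufa4 and Ndufb3 changed by 1.14 ± 0.14, 1.15 ± 0.15 and 1.09 ± 0.15. The 3 lower genes were Atp5f1a, Uqcrc2 and Sdha, at -0.59, -0.43 and -0.26.

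Of the 13 mitochondrially encoded genes 12 were higher and none lower both ways, with a median of 1.82. Mt-nd4l of complex I had 510.3, 364, 549.5, 402 and 344 FPKM in controls and 1145, 1259, 1949, 1383 and 1378 in WDD lungs (1.71 ± 0.17, adjusted p = 4.67e-05). Mt-nd3 and Mt-cyb changed by 1.82 ± 0.19 and 1.89 ± 0.24, and Mt-atp8, not called, differed by 0.54 ± 0.33 (adjusted p = 0.188). The median in COPD lungs, 2.93 above control, was larger. The lists behind the long-minus-short measure showed the same division: of 31 long housekeeping transcripts 30 were lower and none higher (27 and 0 after scaling), with a median of -0.89, and of 39 short ones 36 were higher and none lower (39 and 0 after scaling), with a median of 0.82. Examples are the histone methyltransferases Kmt2c and Kmt2d and the ubiquitin ligase Huwe1 at -1.53 ± 0.17, -1.204 ± 0.12 and -1.19 ± 0.14, and the splicing proteins Snrpd1 and Snrpd2 and the nascent-chain factor Naca at 1.07 ± 0.13, 1.22 ± 0.15 and 0.88 ± 0.09. Utrn, which encodes utrophin, changed by -0.88 ± 0.11.

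**Figure D4:**
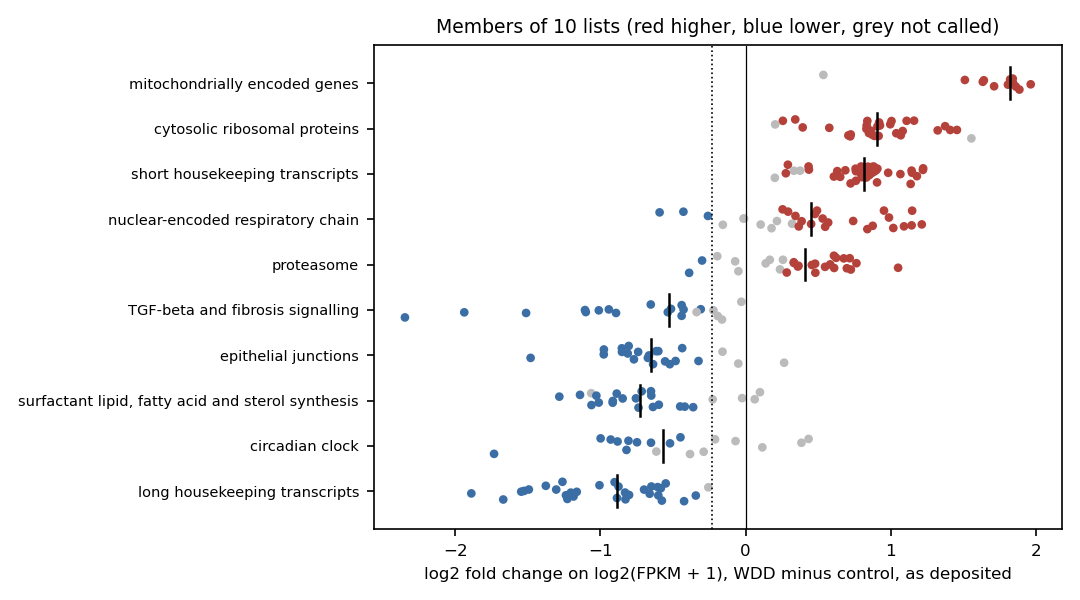
log2 fold change (log2(FPKM + 1), WDD minus control, as deposited) of the tested members of 10 lists, 1 point per gene, with the list median as a bar and the median of all genes (-0.23) dotted. Ribosomal, proteasome, respiratory chain and short housekeeping genes lie mainly to the right, and long housekeeping, junction, lipid synthesis and transforming growth factor beta genes to the left.

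Haemoglobin and platelet transcripts were higher. Of 5 erythroid genes 4 were higher and none lower, where 12.5% of all genes were higher. Their summed level was 368 to 6610.4 FPKM in controls and 4896 to 13736 in WDD lungs. Hba-a2, an alpha globin, had 87.9, 1522, 528, 169 and 228 FPKM in controls and 2862, 1860.4, 1389.8, 2552 and 2428 in WDD lungs (2.801 ± 0.60, adjusted p = 0.00197). Control 2 lay above WDD 3, so the groups overlapped, and Hba-a1 and Hbb, with close copies of their own, changed by 2.58 ± 0.63 and 2.72 ± 0.64. Alas2 changed by 1.43 ± 0.51 (adjusted p = 0.03), a call lost without WDD 1, 4 or 5 and without control 1, 4 or 5 (1.21 to 1.41, adjusted p = 0.0550 to 0.0731). All 4 platelet genes tested were higher, both as deposited and after scaling. Pf4, a chemokine of platelet granules, had 40.9, 54.5, 31.8, 28.01 and 21.6 FPKM in controls and 93.05, 81.4, 78.5, 79.9 and 110.0 in WDD lungs (1.36 ± 0.20, adjusted p = 2.11e-04), and Clec1b, Itga2b and Treml1 changed by 0.796 ± 0.13, 0.64 ± 0.14 and 0.67 ± 0.21. With all 15 libraries in one fit the calls of these 3 were lost (0.80, 0.64 and 0.67, adjusted p = 0.0736, 0.140 and 0.189), and that of Treml1 also without WDD 4 and WDD 5 (0.68, adjusted p = 0.0604). How much blood each lung held was not measured, and its part in these values was not tested.

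The other lists held few called genes, changed with the scaling or, for the unfolded protein response, had about the share of all genes called. Of all genes 12.5% were higher and 42.3% lower, 54.7% in either direction. After scaling these shares were 26%, 24.6% and 50.6%. Of 19 chaperones 2 were higher and 3 lower as deposited, and 13 and none after scaling. Hspe1 and Hspb6 changed by 0.67 ± 0.16 and 0.43 ± 0.13, the latter 0.26 without WDD 4 and WDD 5 (adjusted p = 0.124), while Hspd1, the partner chaperonin of Hspe1, differed by -0.39. Of 22 genes of the unfolded protein response 4 were higher and 8 lower (7 and 5 after scaling), with the sensors Atf6 and Ern1 at -1.57 ± 0.22 and -1.02 ± 0.12 and Sel1l, of protein degradation in the endoplasmic reticulum, at -1.05 ± 0.10. Of 22 genes of glycolysis and hypoxia 1 was higher and 9 were lower (5 and 2 after scaling), with Hk2 and Slc2a1 at -0.58 ± 0.11 and -0.62 ± 0.12. The 1 rise, Bnip3 (0.199 ± 0.07), was not called when any one of WDD 1, 2, 4, 5, control 1 and control 5 was left out (0.17 to 0.21, adjusted p = 0.0562 to 0.0860). Of 22 cell cycle genes 1 was higher, Mcm7 (0.25 ± 0.09), and 4 were lower (4 and 0 after scaling, and 1 lower without WDD 4 and WDD 5). Mcm7 was not called without WDD 2 or 3 or without control 1, 3, 4 or 5 (0.20 to 0.25, adjusted p = 0.0516 to 0.0736). Of 6 genes of cardiac and skeletal muscle 2 were higher and 1 lower, Tnnt2 at 0.81 ± 0.16 and Tnni3 at 1.22 ± 0.36 (0.78 and adjusted p = 0.101 for Tnni3 without WDD 4 and WDD 5). Among 3 adipocyte genes Cfd was higher (1.04 ± 0.32, and 0.64 with adjusted p = 0.120 without WDD 4 and WDD 5). The 1 cartilage gene tested, Col11a2, changed by 0.49 ± 0.19, and this call was lost without WDD 1, 2 or 3 or without control 3, 4 or 5 (0.39 to 0.49, adjusted p = 0.0716 to 0.114). Of 4 liver genes none was higher and 2 were lower (none after scaling). Both sex-linked check genes were called as deposited, Kdm5d at -0.35 and Eif2s3y at 0.44, the latter 0.33 without WDD 4 and WDD 5 (adjusted p = 0.108). Eif2s3y, a gene of the Y chromosome, lay at 14.9 to 26.02 FPKM in controls and 25.1 to 32.6 in WDD lungs.

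**Figure D5:**
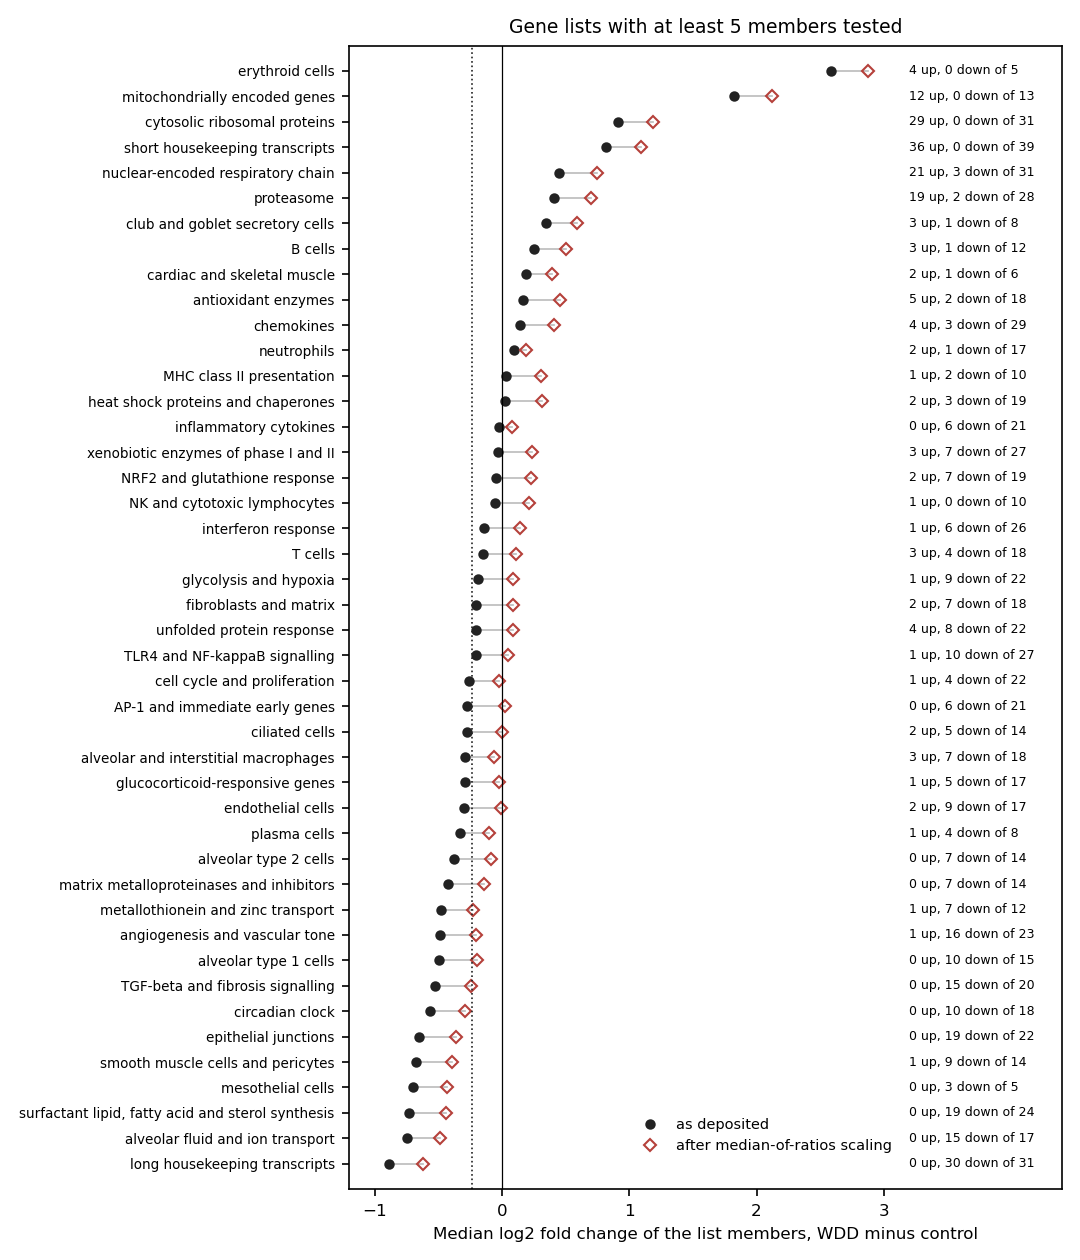
Median log2 fold change of the tested members of each list with at least 5 of them, as deposited (filled circles) and after median-of-ratios scaling (open diamonds), with the number of members called higher and lower as deposited. The dotted line is the median of all genes as deposited, -0.23; erythroid (2.58) and mitochondrially encoded genes (1.82) lie furthest right and long housekeeping transcripts (-0.89) furthest left.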

How the data were processed

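Of 15 rat lung RNA libraries, the 5 WDD and 5 control libraries were compared here. The deposited values are FPKM computed by the authors, for 22250 genes with Ensembl identifiers, 3950 of them at 0 throughout. RNA was isolated with TRIzol and libraries were built with a NEBNext Ultra kit, per the labels' protocols. Reads were handled with cutadapt, HISAT2 and StringTie on build Rnor_6.0, per the submitters' processing notes. Versions, annotation release and strand use were not given in the sources used here. FPKM divides by gene length and library total, so a larger share of a few transcripts lowers all others. Read counts were not analysed here, and no counting intervals are given.

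Values were taken as log2(FPKM + 1), with genes kept that reached an FPKM of 1 in 5 or more of 15 libraries (13172 genes). The 10 libraries were fitted with limma 3.58.1 (eBayes with trend, R 4.3.3), as deposited and after median-of-ratios scaling. Tests were two-sided, with Benjamini-Hochberg adjustment over all genes tested and a threshold of 0.05. Library measures were compared by exact permutation tests (Python 3.11.15, scipy 1.17.1, numpy 2.4.6, pandas 2.3.3, with figures by matplotlib 3.10.9). The fitting script was tested on simulated data. Named genes are the 12 largest changes in each direction among genes with a proper symbol that were called both ways without overlap, and up to 4 members of lowest p per list called both ways; 4 of these genes are not reported here. Other genes named were added after their values were seen. Of 972 genes in 51 lists (23 of cell types and 28 of pathways), 817 were tested, 100 were below the filter, 51 symbols were not matched and 4 occur more than once. The comparison, lists and rules were chosen with earlier results of these data known. Alternatives changed the pseudocount, filter, scaling, variance model, library weights, samples in the fit and replicate block, or left out libraries. Gene lengths of build Rnor_6.0 were not used here. Promoter sequences come from RefSeq (GRCr8).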

Additional observations from a re-analysis of the deposited data

Results flagged for a closer look

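In a group of 5 libraries, 1 library stood apart from the other 4 in 40 of 428 groups examined (9.35%), by the size of its gap relative to the group's range. Chance flags about 1 in 20 groups at this cut-off if values are independent and normally distributed. FPKM of chosen genes need not be so, and these groups share the same 10 libraries. The share flagged was not tested against that rate. Control 1 accounted for 22 of the 40.

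Control 1 stood below its group for Tgfbr2 at 26.7 (others 76.0 to 87.0), Susd6 at 21.97 (others 45.8 to 50.5) and Cx3cl1 at 6.26 (others 12.2 to 13.3) FPKM. The same held for Cyp4b1 at 241 (others 324 to 335), Mmp15 at 25.5 (others 45.8 to 51.7) and Marveld2 at 3.52 (others 5.58 to 6.32). The same held for Cdh1 at 49.0 (others 67.8 to 72.4), Fmo2 at 580.3 (others 970.0 to 997) and Timp3 at 403 (others 826 to 929.9). Control 1 stood above its group for Tnni3 at 11.3 (others 2.95 to 3.98), RT1-Db1 at 68.9 (others 26.4 to 32.4) and Txn1 at 374 (others 192 to 224) FPKM. The same held for Rpl11 at 121 (others 78.8 to 90.5) and Psmb7 at 18.9 (others 11.9 to 13.4). The same held for Psmb1 at 137 (others 101 to 103), Snrpd2 at 63.1 (others 34.5 to 42.1) and Ccdc152 at 183 (others 73.2 to 103). The same held for Rpl41 at 1361 (others 773 to 869.5), Il1r2 at 4.25 (others 1.04 to 1.76) and Mt2A at 139 (others 26.8 to 58.5). The same held for Cxcl1 at 42.5 (others 11.5 to 17.1). Its long-minus-short value was -2.55 (others -1.80 to -1.53).

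Control 2 stood below its group for Cd80 at 0.551 (others 1.22 to 1.49) FPKM. Control 3 stood above its group for Nr4a3 at 2.90 (others 0.878 to 1.42) and Ccl7 at 5.71 (others 0.834 to 1.95) FPKM. Control 5 stood above its group for Mertk at 12.9 (others 10.3 to 10.99) and Klrd1 at 8.49 (others 5.38 to 6.27) FPKM.

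WDD 1 stood below its group for Cd79a at 8.53 (others 13.7 to 15.7) FPKM. WDD 1 stood above its group for Tgfbr2 at 13.1 (others 11.6 to 11.9), Il6st at 23.0 (others 10.7 to 12.2) and Marveld2 at 1.78 (others 1.09 to 1.23) FPKM. WDD 2 stood above its group for Tnnt2 at 4.48 (others 2.64 to 3.14), Clec1b at 17.4 (others 10.5 to 12.1) and Irf9 at 30.1 (others 24.5 to 25.7) FPKM. WDD 3 stood below its group for Spock2 at 6.002 (others 17.8 to 21.6) and Nr3c1 at 22.3 (others 26.2 to 27.4) FPKM. WDD 3 stood above its group for Cxcl1 at 47.1 (others 13.6 to 15.8) and Sftpb at 2834 (others 2250.1 to 2331) FPKM. WDD 5 stood below its group for Ebi3 at 0.528 (others 1.54 to 1.66) FPKM. WDD 5 stood above its group for Cspg4 at 4.47 (others 3.84 to 3.998) FPKM.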

How the results depend on the processing

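The counts of called genes, 1642 higher and 5569 lower, depended on scaling, on the samples fitted and on a minimum size of change. Median-of-ratios scaling gave 3420 and 3241, quantile normalisation 3160 and 3180, and scaling to the FPKM sum without mitochondrially encoded genes gave 1077 higher and 6943 lower. Fitting all 15 libraries gave 836 higher and 4079 lower, or, with median-of-ratios scaling, 2100 and 2221. Requiring a log2 fold change of at least 1 gave 222 higher and 1177 lower, or 551 and 598 after scaling. Leaving out 1 library at a time gave 1366 to 1903 higher and 5086 to 5640 lower, or 2989 to 3717 and 2803 to 3418 after scaling. Without WDD 4 and WDD 5 together, an alternative chosen after seeing the data, the counts were 1166 and 4660, or 2701 and 2436 after scaling. The mitochondrial share difference ranged from 12.5 to 14.3 points and the long-minus-short difference from -2.04 to -1.76 with 1 library left out. Directions reversed for Scgb1a1 (-0.23), Tppp3 (-0.14) and Sftpc (-1.006) under quantile normalisation and for Sftpd (0.25) under median-of-ratios scaling, and the cause was not tested.

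Replicate numbers did not pair the libraries: deviations of same-numbered libraries correlated at -0.2006, 0.03254, 0.009228, 0.02407 and -0.1214, and none matched best with its own number. With the replicate number as a block, 1475 genes were higher and 5200 lower, or 3111 and 2885 after scaling.

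With all 15 libraries fitted, the nuclear respiratory chain list had 12 higher genes in place of 21, angiogenesis 10 lower in place of 16, and antioxidant enzymes 1 higher in place of 5. Of 216 named genes 190 were called, of which 143 kept call and direction in every setting that tested them and 47 did not. Calls were lost for 30 of them with all 15 libraries fitted, among them Cx3cl1, Ddx58, Fmo2, Gpx8, Hk2, Irf9, Nr4a3, Prdx2, Tnfaip3 and Txnrd1, and for 12 under quantile normalisation, among them Cspg4, Hba-a1, Itgam, Lif, Prdm1 and Slc2a1. Of the 216, 209 were tested with the filter on the 10 libraries and 181 with a mean FPKM of at least 5. Genes named by rule had to be called both ways, so keeping the call under median-of-ratios scaling was built in for them. Without read counts, the precision of low genes is unknown.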
